A study of Mus musculus with 22 samples.

Results

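Interferon response genes are genes whose transcription rises when a cell senses an interferon, and 35 of them were followed here through hnRNP A1 CLIPseq of mouse spinal cord. The 35 are a chosen list of symbols, taken out of 55536 annotated mouse genes, 22028 of them protein-coding. A gene was counted as footprinted in a mouse when an hnRNP A1 footprint of that mouse overlapped the annotated gene span by at least 1 nt. No measured value entered this rule, but the list was drawn up with earlier results of these data known.

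hnRNP A1 is an RNA binding protein that shuttles between nucleus and cytoplasm and takes part in splicing, transport and translation of RNA. CLIPseq joins a protein to its RNA with UV light, pulls the protein down with an antibody, and sequences what comes with it. Type I interferons signal through STAT2 and IRF9 among other factors, and they and interferon gamma switch on antiviral effectors, GTPases that attack pathogen vacuoles, RNA sensors and the inhibitors that end the response. In the spinal cord such genes are low at rest and rise in microglia, astrocytes and infiltrating leukocytes during inflammation.

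All mice were wild-type female C57Bl/6. Experimental autoimmune encephalomyelitis (EAE) is an autoimmune model of multiple sclerosis, induced here with a myelin oligodendrocyte glycoprotein peptide in complete Freund's adjuvant and 2 doses of 100 ng pertussis toxin, while the naïve mice were age-matched and not immunized. Immunization was at 12 weeks of age by the sample protocol, and at 8 weeks by the design text of the series. Spinal cords were taken 15 days after onset. The groups were 3 naïve mice (numbers 1, 2 and 3), 3 mice with mild EAE (numbers 3, 4 and 7, clinical scores 1.5, 1.5 and 1.0) and 4 mice with severe EAE (numbers 1, 2, 5 and 6, scores 2.5, 3.0, 2.5 and 3.0), each with 1 immunoprecipitation. The labels give the scores but not the words mild and severe, and mice scoring 2.5 or more were taken as severe. EAE mice are numbered through both severity groups, and naïve mouse 1 and EAE mouse 1 are different animals.

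The values are lists of genome positions without read counts, scores or strand, so the depth behind a footprint is unknown. Naïve mice had 17119 to 17494 footprints, mild EAE mice 9751 to 24433, and severe EAE mice 209 to 31870. Severe EAE mice 2 and 6, with 209 and 673 footprints, stood apart, and a single footprint there weighs more in the share than all footprints of any of the 35 genes in any other mouse. Neuron markers were footprinted in every naïve and mild EAE mouse (6 or 7 of 7 genes), as were oligodendrocyte markers (4 or 5 of 5), so the labelled tissue was recognizable in those lists. Severe EAE mouse 2 had no footprint in any marker list. The tissue was bulk spinal cord, in which more cells of a type and more RNA per cell cannot be told apart, and a footprint also needs enough RNA of the gene to assemble. Matched inputs were not analysed here, and the role of RNA abundance was not tested.

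The first 7 stretches below are shown because they recurred between mice. They are taken from the 18 coding stretches covered by footprints of at least 3 mice, ranked by the number of mice and then by length. Only the top of this ranking was used, so lower-ranked stretches are not shown. Within it, those that touch an annotated UTR of any transcript (in Nlrc5 and Samhd1) were left out. The last stretch printed is the longest coding footprint of up to 300 nt, which lay in Parp14 and was found in severe EAE mouse 5 alone. Each is written 5′ to 3′ on the strand of the gene, from GRCm38, and capitals mark the hnRNP A1 motifs UAG and AGGU as TAG and AGGT.
Rnf213 chr11:119410789-119410877 (plus strand): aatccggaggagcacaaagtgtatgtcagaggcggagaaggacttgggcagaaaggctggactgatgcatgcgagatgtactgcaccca
Rnf213 chr11:119411427-119411491 (plus strand): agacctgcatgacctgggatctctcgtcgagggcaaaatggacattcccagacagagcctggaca
Stat3 chr11:100898460-100898498 (minus strand): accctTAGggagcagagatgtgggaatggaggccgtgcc
Stat3 chr11:100904907-100905022 (minus strand): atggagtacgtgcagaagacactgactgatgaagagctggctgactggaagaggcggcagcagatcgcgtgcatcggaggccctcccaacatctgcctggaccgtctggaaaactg
Stat3 chr11:100905593-100905674 (minus strand): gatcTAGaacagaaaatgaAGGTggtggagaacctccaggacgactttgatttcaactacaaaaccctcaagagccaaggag
Stat3 chr11:100905833-100905887 (minus strand): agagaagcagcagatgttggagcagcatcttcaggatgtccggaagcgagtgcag
Stat2 chr10:128276576-128276623 (plus strand): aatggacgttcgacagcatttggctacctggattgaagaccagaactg
Parp14 chr16:35858172-35858441 (minus strand): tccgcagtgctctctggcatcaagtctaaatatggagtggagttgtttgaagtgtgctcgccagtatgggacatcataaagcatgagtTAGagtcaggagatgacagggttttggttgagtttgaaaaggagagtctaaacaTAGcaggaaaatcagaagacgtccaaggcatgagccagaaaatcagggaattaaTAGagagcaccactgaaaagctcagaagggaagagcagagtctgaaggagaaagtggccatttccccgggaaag
The 2 Rnf213 stretches are exon sequence of an E3 ubiquitin ligase with antiviral activity, and both were covered in 5 mice, namely naïve mouse 1, mild EAE mice 3, 4 and 7, and severe EAE mouse 5. The first Stat3 stretch shown was covered in 4 mice, which were naïve mouse 2, mild EAE mice 3 and 7, and severe EAE mouse 5. The last 3 Stat3 stretches were each covered in 3 EAE mice and no naïve mouse. The Stat2 stretch was covered in naïve mouse 1 and mild EAE mice 3 and 7. Of the 8 stretches shown, 3 hold a UAG, and 1 holds an AGGU.

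To see how many interferon response genes were bound in each state, footprinted genes were counted per mouse. Naïve mice 1, 2 and 3 had 2, 5 and 4 of the 35 genes footprinted. With mild EAE the number was 12 in mouse 3, 8 in mouse 4 and 14 in mouse 7, so every mild EAE mouse exceeded every naïve mouse. With severe EAE it was 2 in mouse 1, 21 in mouse 5 and 0 in mice 2 and 6. Severe EAE mouse 5 was thus above all other mice, and the other 3 severe EAE mice were at or below the lowest naïve mouse. Mean numbers were 3.67 ± 1.53 genes for naïve mice (SD, n = 3), 11.3 ± 3.06 in mild EAE (n = 3) and 5.75 ± 10.2 in severe EAE (n = 4).

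List length bears on such counts, so the same percentage was taken over all protein-coding genes. In naïve mice 5.71%, 14.3% and 11.4% of the 35 genes were footprinted, against 17.6%, 24% and 19.8% of protein-coding genes. In mild EAE mice 3, 4 and 7 the order was turned, with 34.3%, 22.9% and 40% of the 35 genes against 18.3%, 13.6% and 25.4%. Severe EAE mouse 5 gave 60% against 29.4%, and severe EAE mouse 1 gave 5.71% against 5.44%. Severe EAE mice 2 and 6 gave 0% against 0.486% and 1.79%, where 0 of 35 genes is little different from what such short lists hold.

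The footprints themselves followed the genes. Naïve mice 1, 2 and 3 had 4, 15 and 6 footprints in the 35 genes, and the mild EAE mice, in the order 3, 4 and 7, had 44, 17 and 41. Severe EAE mouse 5 had 80 and mouse 1 had 4, while mice 2 and 6 had 0, which makes 211 in all. Per 1000 footprints of the mouse this was 0.234, 0.859 and 0.343 for the naïve group. The mild EAE group had 3.03, 1.74 and 1.68, and the severe EAE group 1.50, 0, 2.51 and 0 in the order of the mouse numbers. All 3 mild EAE mice and severe EAE mice 1 and 5 lay above all naïve mice. The 95% exact (Clopper-Pearson) intervals of naïve mice 1 and 3 (up to 0.598 and 0.746) did not reach those of the mild EAE mice (from 2.20, 1.02 and 1.20) or of severe EAE mouse 5 (1.99 to 3.12), whereas naïve mouse 2 reached 1.42 and severe EAE mouse 1 spanned 0.408 to 3.83. The 0 of severe EAE mice 2 and 6 allows shares of up to 14.4 and 4.46 per 1000 (3 counts), above every value measured elsewhere. Intervals and limits cover counting error only, and neighbouring footprints of 1 gene are not independent. The group means were 0.479 ± 0.334 (SD, n = 3) in naïve, 2.15 ± 0.761 (n = 3) in mild EAE and 1.00 ± 1.23 (n = 4) in severe EAE.

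**Figure D1:**
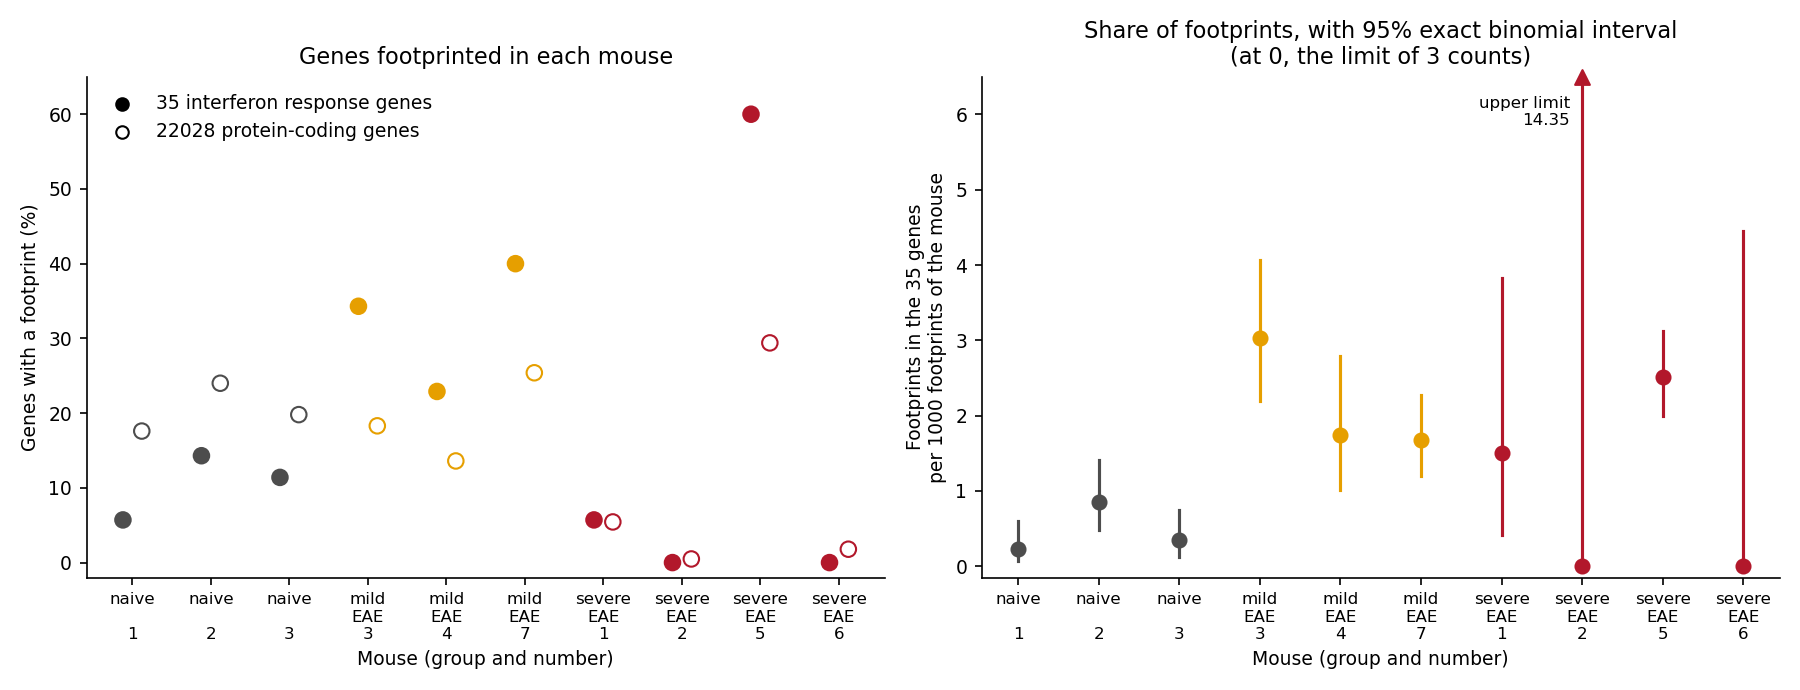
Left, percentage of the 35 interferon response genes (filled) and of all 22028 protein-coding genes (open) with at least 1 footprint in each mouse. Right, footprints in the 35 genes per 1000 footprints of the mouse with the 95% exact binomial interval, or for a count of 0 the limit that 3 counts allow, the arrow marking a limit of 14.35 beyond the axis. Filled points lie below open points in the 3 naïve mice and above them in the 3 mild EAE mice and severe EAE mouse 5.

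Across all mice 25 of the 35 genes (71.4%) had a footprint, against 45.4% of protein-coding genes. In at least 1 naïve mouse it was 8 genes (22.9%) against 33.8%, in at least 1 mild EAE mouse 19 genes (54.3%) against 31.7%, and in at least 1 severe EAE mouse 21 genes (60%) against 30.3%. The severe EAE figure rests on mouse 5, which held all 21. With at least 2 mice required, 2 genes (5.71%), Rnf213 and Samhd1, were footprinted in naïve mice against 18.3% of protein-coding genes, 12 (34.3%) in mild EAE against 17.3%, and 2 (5.71%), Stat3 and Samhd1, in severe EAE against 5.84%. Gene spans were of like length, with a median of 16608 nt for the 35 genes and 17318 nt for protein-coding genes.

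Of the 35 genes, 8 (22.9%) were footprinted in at least 2 EAE mice and in no naïve mouse, against 4.33% of protein-coding genes. They were the transcription factors Irf1 and Irf8, the GTPases Gbp2, Gbp5, Iigp1 and Irgm1, the antiviral Ifit3, and Oasl2, a member of the oligoadenylate synthetase family. The reverse, at least 2 naïve mice and no EAE mouse, held for 0 of the 35 genes, against 1.03% of protein-coding genes. Without severe EAE mouse 5 the 8 genes became 5 (14.3%), namely Irf1, Gbp2, Gbp5, Iigp1 and Irgm1, against 2.34% of protein-coding genes. With at least 3 EAE mice required, 4 genes (11.4%), Gbp2, Gbp5, Iigp1 and Irgm1, had no naïve footprint, against 1.63% of protein-coding genes, and without severe EAE mouse 5 it was 0 genes, against 0.631%. None of the 8 genes had a footprint in severe EAE mice 1, 2 and 6, so leaving those mice out could not change them. The protein-coding percentage was then 4.03%. No test was made over the list, because its members were chosen.

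**Figure D2:**
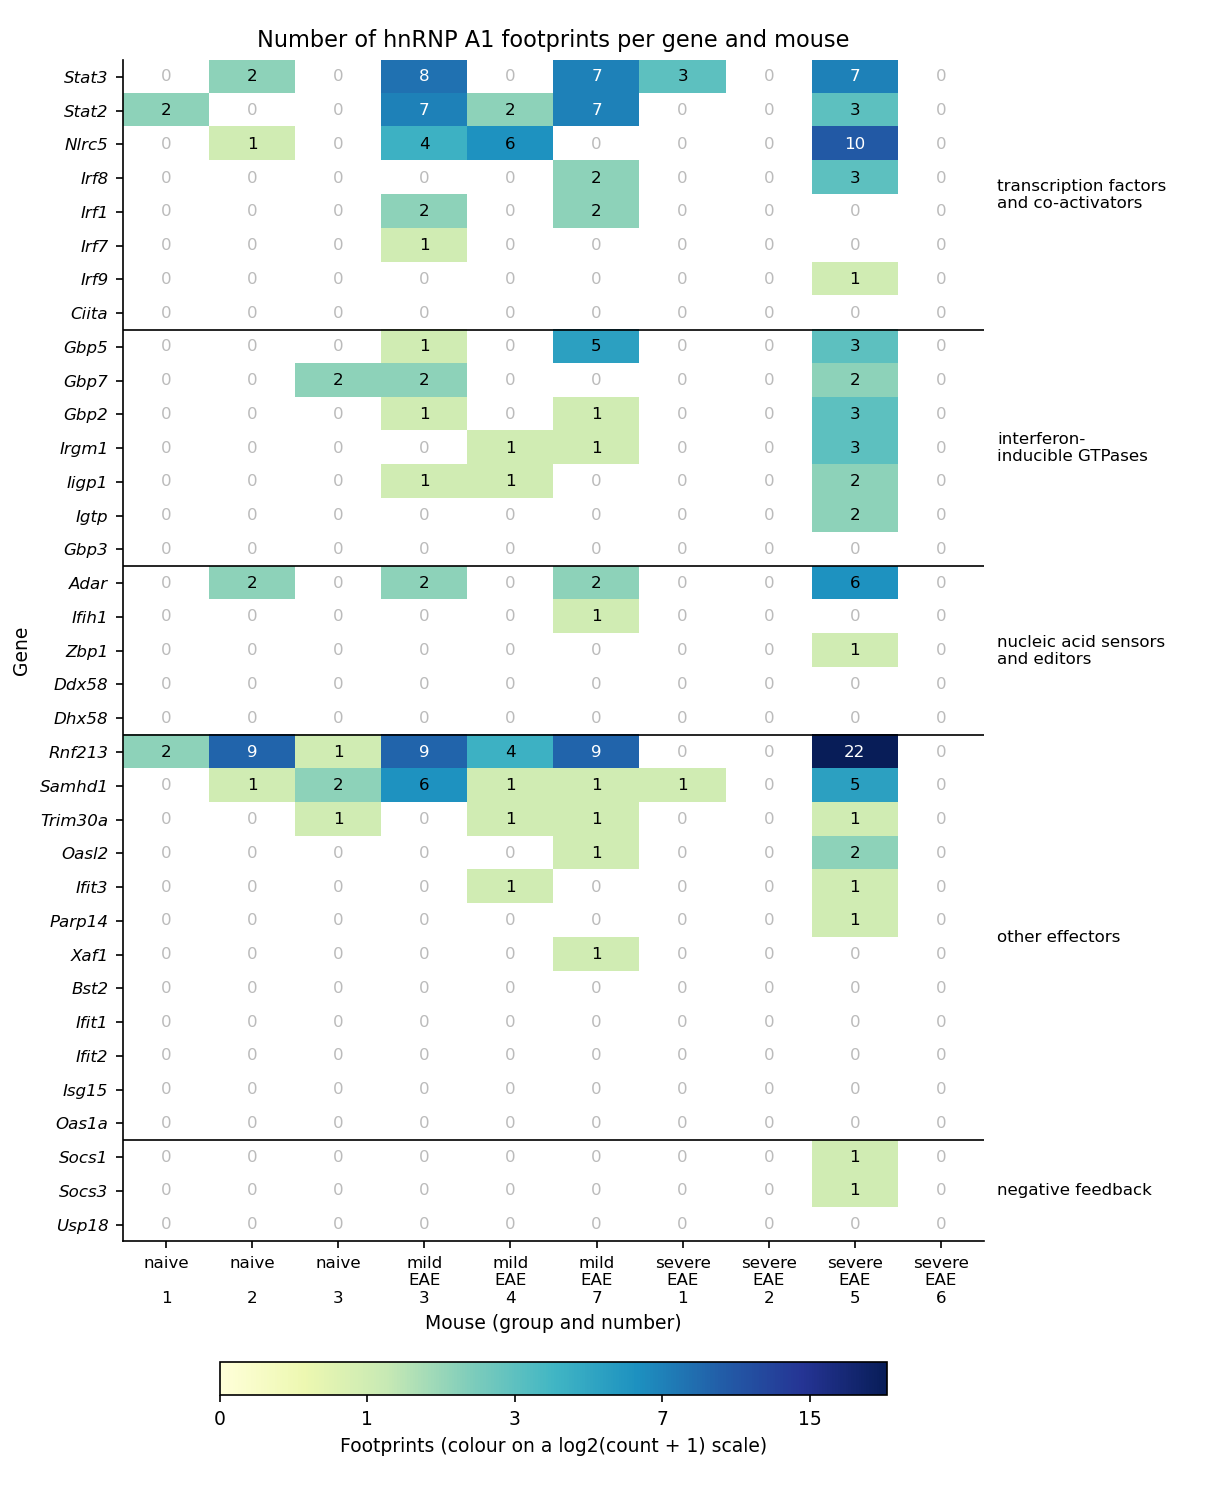
Number of footprints in each of the 35 genes (rows, by role) and each of the 10 mice (columns), with colour on a log2(count + 1) scale. Rnf213 was footprinted in all 3 naïve mice, Gbp2, Gbp5, Iigp1, Irgm1, Irf1 and Irf8 only in EAE mice, and the columns of severe EAE mice 2 and 6 are empty.

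The factors that carry the interferon signal to the genome, with the related co-activators, held 80 of the 211 footprints. Of 8 such genes 7 were footprinted, 3 in naïve, 6 in mild EAE and 5 in severe EAE mice. For this and the later roles, the shares over all protein-coding genes were 45.4% in any mouse, 33.8% in naïve, 31.7% in mild EAE and 30.3% in severe EAE mice. Each role holds few genes, so the counts by role are described only. STAT2 is a transcription factor of type I interferon signalling. Stat2 had 2 footprints in naïve mouse 1 and none in naïve mice 2 and 3, then 7, 2 and 7 in mild EAE mice 3, 4 and 7, and 3 in severe EAE mouse 5 with none in the other severe EAE mice. Each mild EAE mouse was above each naïve and each severe EAE mouse in Stat2 share, at 0.482, 0.205 and 0.287 per 1000 against at most 0.117 and 0.0941. The 0 of severe EAE mice 1, 2 and 6 allows up to 1.12, 14.4 and 4.46 per 1000 (3 counts), above all mild EAE values, so a lower Stat2 share was not detectable in those 3 lists. The severe minus mild difference of Stat2 was -0.301 per 1000 (exact permutation p = 0.0286, the lowest that 35 splits allow, adjusted p = 0.635 over 9195 genes). The mild minus naïve difference of Stat2 was 0.286 per 1000 (exact permutation p = 0.1, adjusted p = 0.997).

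STAT3 mediates interleukin-6 family signals and is induced with inflammation. Stat3 had 2 footprints in naïve mouse 2, then 8 in mild EAE mouse 3, 7 in mild EAE mouse 7, 3 in severe EAE mouse 1 and 7 in severe EAE mouse 5, with none in the other 5 mice. The groups overlapped at 0, since 2 naïve, 1 mild EAE and 2 severe EAE mice had no Stat3 footprint. The highest share, 1.12 per 1000, was that of severe EAE mouse 1, from only 3 footprints in a list of 2670. Group means of Stat3 were 0.0382 ± 0.0662 (SD, n = 3) in naïve, 0.279 ± 0.275 (n = 3) in mild EAE and 0.336 ± 0.535 (n = 4) in severe EAE.

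Among the interferon regulatory factors, Irf1 had 2 footprints each in mild EAE mice 3 and 7, lying in the same 2 coding stretches, chr11:53773717-53773832 and chr11:53773926-53773975. Irf8, a factor of microglia and macrophages, had 2 footprints in mild EAE mouse 7 and 3 in severe EAE mouse 5, all inside the readthrough gene Gm20388 on the same strand, and 1 complete exon was covered in both mice. Irf7, the amplifier of type I interferon production, had 1 footprint, in mild EAE mouse 3. Irf9, which binds DNA together with STAT2 in type I signalling, had 1, in severe EAE mouse 5, over its 5′ UTR and overlapping the neighbouring Rnf31.

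NLRC5 and CIITA are the co-activators of MHC class I and class II genes. Nlrc5 had 4 footprints in mild EAE mouse 3, 6 in mild EAE mouse 4 and 10 in severe EAE mouse 5, and the single naïve footprint, in mouse 2, was intronic. Of its 21 footprints 9 spanned a complete exon. The groups overlapped at 0, with mild EAE mouse 7 lacking Nlrc5, and the means were 0.0191 ± 0.0331 per 1000 (SD, n = 3) in naïve and 0.297 ± 0.308 (n = 3) in mild EAE. Ciita had no footprint in any mouse.

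Guanylate-binding proteins and immunity-related GTPases coat and break down vacuoles that hold pathogens, and are hallmark targets of interferon gamma. Of 7 such genes 6 were footprinted, 1 in naïve, 5 in mild EAE and 6 in severe EAE mice, the last all in mouse 5. Gbp5, which also promotes inflammasome assembly, had 1 footprint in mild EAE mouse 3, 5 in mild EAE mouse 7 and 3 in severe EAE mouse 5, all coding. Gbp2 had 1, 1 and 3 in the same mice. Irgm1, a regulator of autophagy, had 1 footprint each in mild EAE mice 4 and 7 and 3 in severe EAE mouse 5, which together covered 49.8% of its coding sequence. Iigp1 had 1 footprint each in mild EAE mice 3 and 4 and 2 in severe EAE mouse 5, and was unlike the other GTPases in that 0 of 4 lay in coding sequence and 3 lay in its 3′ UTR.

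The shares of Gbp2, Gbp5, Iigp1 and Irgm1 were 0 in all 3 naïve mice and in mild and severe EAE mice ranged from 0 to 0.205 per 1000, so that groups overlapped at 0 for each. Gbp7 was the exception, with 2 footprints each in naïve mouse 3, mild EAE mouse 3 and severe EAE mouse 5, and a lower mean in EAE (0.0286 ± 0.0535, n = 7) than in naïve mice (0.0381 ± 0.0660, n = 3), an order that turned by covered nucleotides and without the 3 short severe EAE lists. Igtp had 2 footprints, in severe EAE mouse 5, both inside the span of Irgm2 as well. Gbp3 had none. GTPases of these families are close paralogs in clusters, and assembled contigs may have been placed on 1 copy among several.

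Genes that sense or edit double-stranded nucleic acid had 14 footprints, in 3 of 5 genes. Adar, which turns adenosine into inosine in double-stranded RNA, held 12 of them, with 2 in naïve mouse 2, 2 each in mild EAE mice 3 and 7 and 6 in severe EAE mouse 5. The 2 of mild EAE mouse 3 and 1 of severe EAE mouse 5 also lay in Chrnb2, a gene on the opposite strand. Ifih1, the sensor MDA5, had 1 footprint, in mild EAE mouse 7. Zbp1, a sensor of Z-form nucleic acid, had 1 intronic footprint, in severe EAE mouse 5. Ddx58 and Dhx58, the sensors RIG-I and LGP2, had none.

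Other effectors held 84 footprints in 7 of 12 genes, and Rnf213 alone held 56. Rnf213 had 2, 9 and 1 footprints in naïve mice 1, 2 and 3, then 9, 4 and 9 in mild EAE mice 3, 4 and 7, and 22 in severe EAE mouse 5 with none in the other severe EAE mice. The groups overlapped, since the 0.516 per 1000 of naïve mouse 2 exceeded mild EAE mice 4 and 7 (0.410 and 0.368). Means of Rnf213 were 0.230 ± 0.249 (SD, n = 3) in naïve, 0.466 ± 0.134 (n = 3) in mild EAE and 0.173 ± 0.345 (n = 4) in severe EAE. Its coding sequence, at 15456 nt the longest of the 35 genes, was footprinted over 23.9% of its length, and 55 of 56 footprints were coding. Of these 56, 17 also overlapped A930037H05Rik, a noncoding gene on the opposite strand.

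SAMHD1 lowers the nucleotide pools that viruses need. Samhd1 had 0, 1 and 2 footprints in naïve mice 1, 2 and 3, then 6 in mild EAE mouse 3 and 1 each in the other mild EAE mice, and 1 and 5 in severe EAE mice 1 and 5. With 7 mice it was as widely footprinted as Rnf213, and its groups overlapped (0 to 0.114 per 1000 in naïve, 0.0409 to 0.413 in mild EAE and 0 to 0.375 in severe EAE). A Samhd1 coding stretch of 105 nt, chr2:157104832-157104936, was touched in naïve mouse 3, mild EAE mouse 3 and severe EAE mice 1 and 5. A further 115 nt inside an intron were shared by mild EAE mice 3 and 4.

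The remaining effectors had few footprints. Ifit3, which helps to hold back viral RNA, had 1 footprint in mild EAE mouse 4 and 1 in severe EAE mouse 5, over nearly the same coding bases (154 nt in common). Oasl2 had 1 in mild EAE mouse 7 and 2 in severe EAE mouse 5. Parp14, an ADP-ribosyltransferase, had the 270 nt footprint printed above, in severe EAE mouse 5, and Xaf1, a pro-apoptotic gene, had 1 in mild EAE mouse 7. Trim30a was footprinted in naïve mouse 3, mild EAE mice 4 and 7 and severe EAE mouse 5, 1 footprint each, but those of mild EAE mouse 4 and severe EAE mouse 5 covered the small nuclear RNA gene Gm25405, on the other strand in a Trim30a intron. Ifit1, Ifit2, Isg15, Bst2 and Oas1a, which are classical type I interferon targets, had none in any mouse.

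Of the inhibitors that end interferon signalling, Socs1 and Socs3 had 1 footprint each, both in severe EAE mouse 5, and Usp18 had none. The 10 genes without a footprint were Ifit1, Ifit2, Gbp3, Bst2, Isg15, Oas1a, Ciita, Usp18, Ddx58 and Dhx58.

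Each gene was tested alone on its footprint share, with two-sided exact permutation over mice and Benjamini-Hochberg adjustment over the 9195 genes footprinted in at least 2 mice, 16 of the 35 among them. None of the 16 passed an adjusted p of 0.05 in any of 4 comparisons, and neither did any other gene. For EAE against naïve mice the lowest exact p that 120 splits allow is 0.00833, and 0 genes (0%) were higher in EAE at an unadjusted p under 0.05, while 522 were lower, none of them among the 16. All 16 were at 0 in severe EAE mice 2 and 6, so none of the 16 could be higher in EAE at a p under 0.05. For mild EAE against naïve mice no p below 0.1 is possible. The 16 genes by themselves were chosen partly by being footprinted often, so their differences are described only, and the 8 with no naïve footprint could only be higher in EAE. The mean share was higher in EAE for 15 of 16, against 42.3% of all genes tested, and higher in mild EAE for 16 of 16, against 52.3%. It was higher in severe EAE than in naïve mice for 11, lower for 4 and equal for 1, against 30.3% higher among all genes. These 3 comparisons share the naïve mice.

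The median difference of the 16 genes was 0.0324 per 1000 for EAE minus naïve, 0.0525 for mild EAE minus naïve and 0.0157 for severe EAE minus naïve, beside medians of -0.00927, 0.00384 and -0.0195 over all genes tested. For severe minus mild EAE it was -0.0351, with 2 of 16 higher in severe EAE, beside -0.0229 and 28.1% of all genes. Without the 3 severe EAE lists of under 3000 footprints, the mean share was higher in EAE for 16 of 16, against 53% of all genes, with a median of 0.0590 beside 0.00556. None of the 16 then reached an unadjusted exact permutation p under 0.05, which 136 genes did in the direction of EAE and 183 in the direction of naïve mice, with 0 after adjustment. In these medians and counts against naïve mice too, the 8 genes with no naïve footprint could not be lower in EAE.

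Most footprints of the 35 genes lay in coding sequence. Of the 211 footprints, 191 were centred on coding sequence, 8 on a 3′ UTR, 2 on a 5′ UTR, 1 on a noncoding exon and 9 on an intron. In each of the 8 mice with such footprints, the coding percentage was above that of all protein-coding genes, by 75% to 100% against 47.3% to 82.5%. Intronic footprints made up 0% to 13.3% of those in the 35 genes, against 12% to 43.1%. In naïve mice 1 and 3 and severe EAE mouse 1 these percentages rest on 4 to 6 footprints.

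Edges of footprints fell on exon ends. Of the 211 footprints, 157 (74.4%) had an edge within 2 nt of an annotated exon end, against 57.2% of 117994 footprints in protein-coding genes. For 142 (67.3%) the edge met another footprint of the same mouse across an annotated intron, as the 2 blocks of 1 spliced contig would, against 50.9%. The percentage was above that of protein-coding genes in each of the 8 mice. In Stat3 such pairs joined 4 introns in each of mild EAE mice 3 and 7, 3 in severe EAE mouse 5 and 1 each in naïve mouse 2 and severe EAE mouse 1. In Rnf213 they joined 8 introns in severe EAE mouse 5 and 4 in naïve mouse 2. Where such a pair came from 1 contig, that contig was counted as more than 1 footprint, but the lists do not name contigs and this was not tested.

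**Figure D3:**
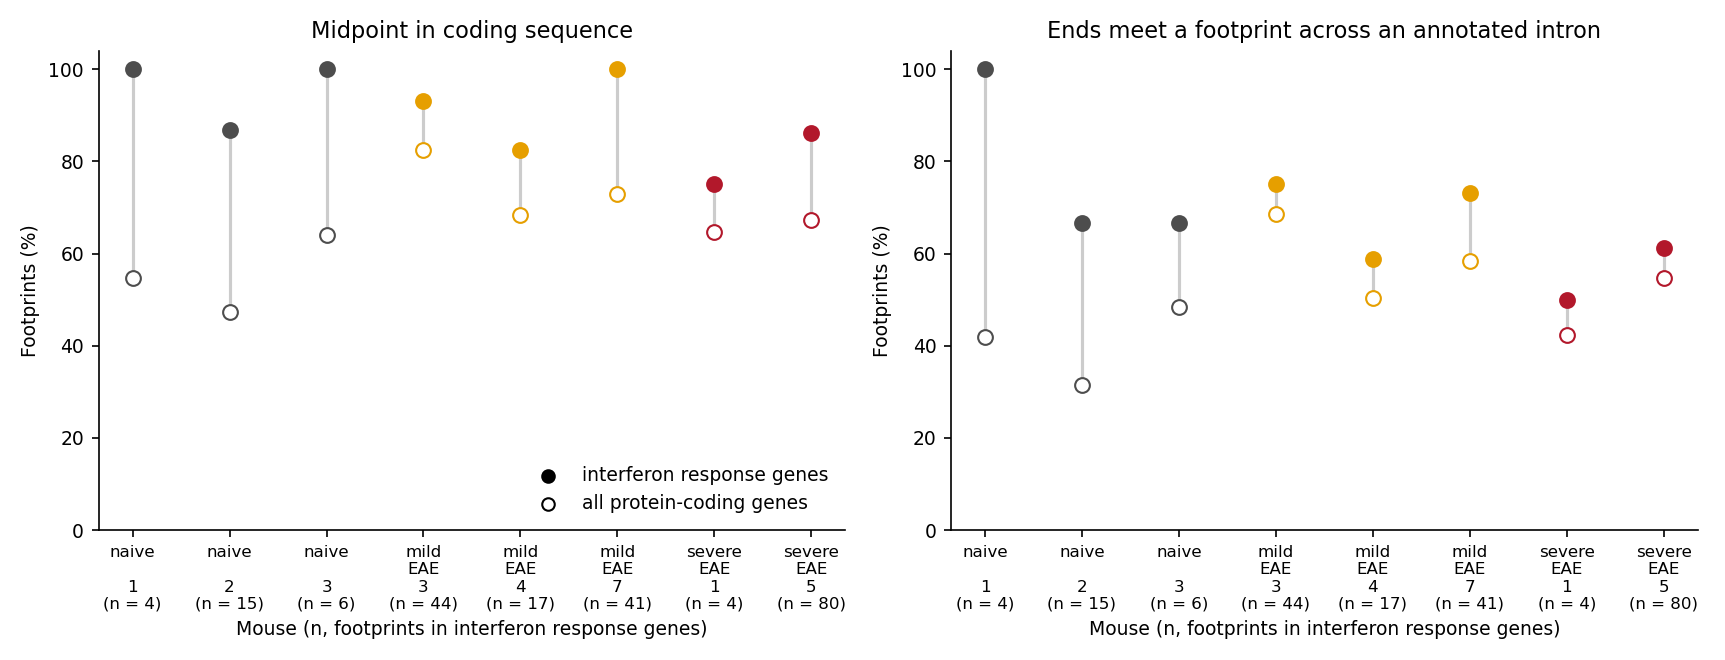
Percentage of footprints with their midpoint in coding sequence (left) and with an edge that meets another footprint across an annotated intron within 2 nt (right), for the 35 interferon response genes (filled) and all protein-coding genes (open), in the 8 mice with a footprint in the 35 genes. Filled points lie above open points in all 8 mice on both sides. The right side includes intronic footprints, which were a smaller part in the 35 genes.

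Some short stretches were covered in more than 1 mouse. Stretches covered in at least 2 mice numbered 45, in 14 genes, and 11 of them included a naïve mouse. At least 3 mice covered 18 stretches in 7 genes, 11 with a naïve mouse, and at least 4 mice covered 4 stretches, 2 in Stat3 and 2 in Rnf213. Such sharing was not counted over all genes, and 186 of the 211 footprints came from EAE mice. The counts therefore do not show that sharing, or sharing among EAE mice alone, is particular to these genes. In Stat3 footprints covered 34.9% of a merged coding sequence of 2310 nt, and apart from 1 stretch at its 3′ end in severe EAE mouse 5 they lay in its 5′ and middle portions. In Stat2 35.9% of 2769 coding nt was covered, with naïve mouse 1 and mild EAE mice 3 and 7 on the same first stretch, and mild EAE mice 3 and 4 sharing another. In Nlrc5 the mild EAE mice 3 and 4 and severe EAE mouse 5 shared 2 adjacent exon stretches, chr8:94487700-94487741 and chr8:94488583-94488646, each covered in all 3. The footprints of Rnf213 merged into 36 regions along the gene, and the pair of exons shown above was the most widely shared.

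**Figure D4:**
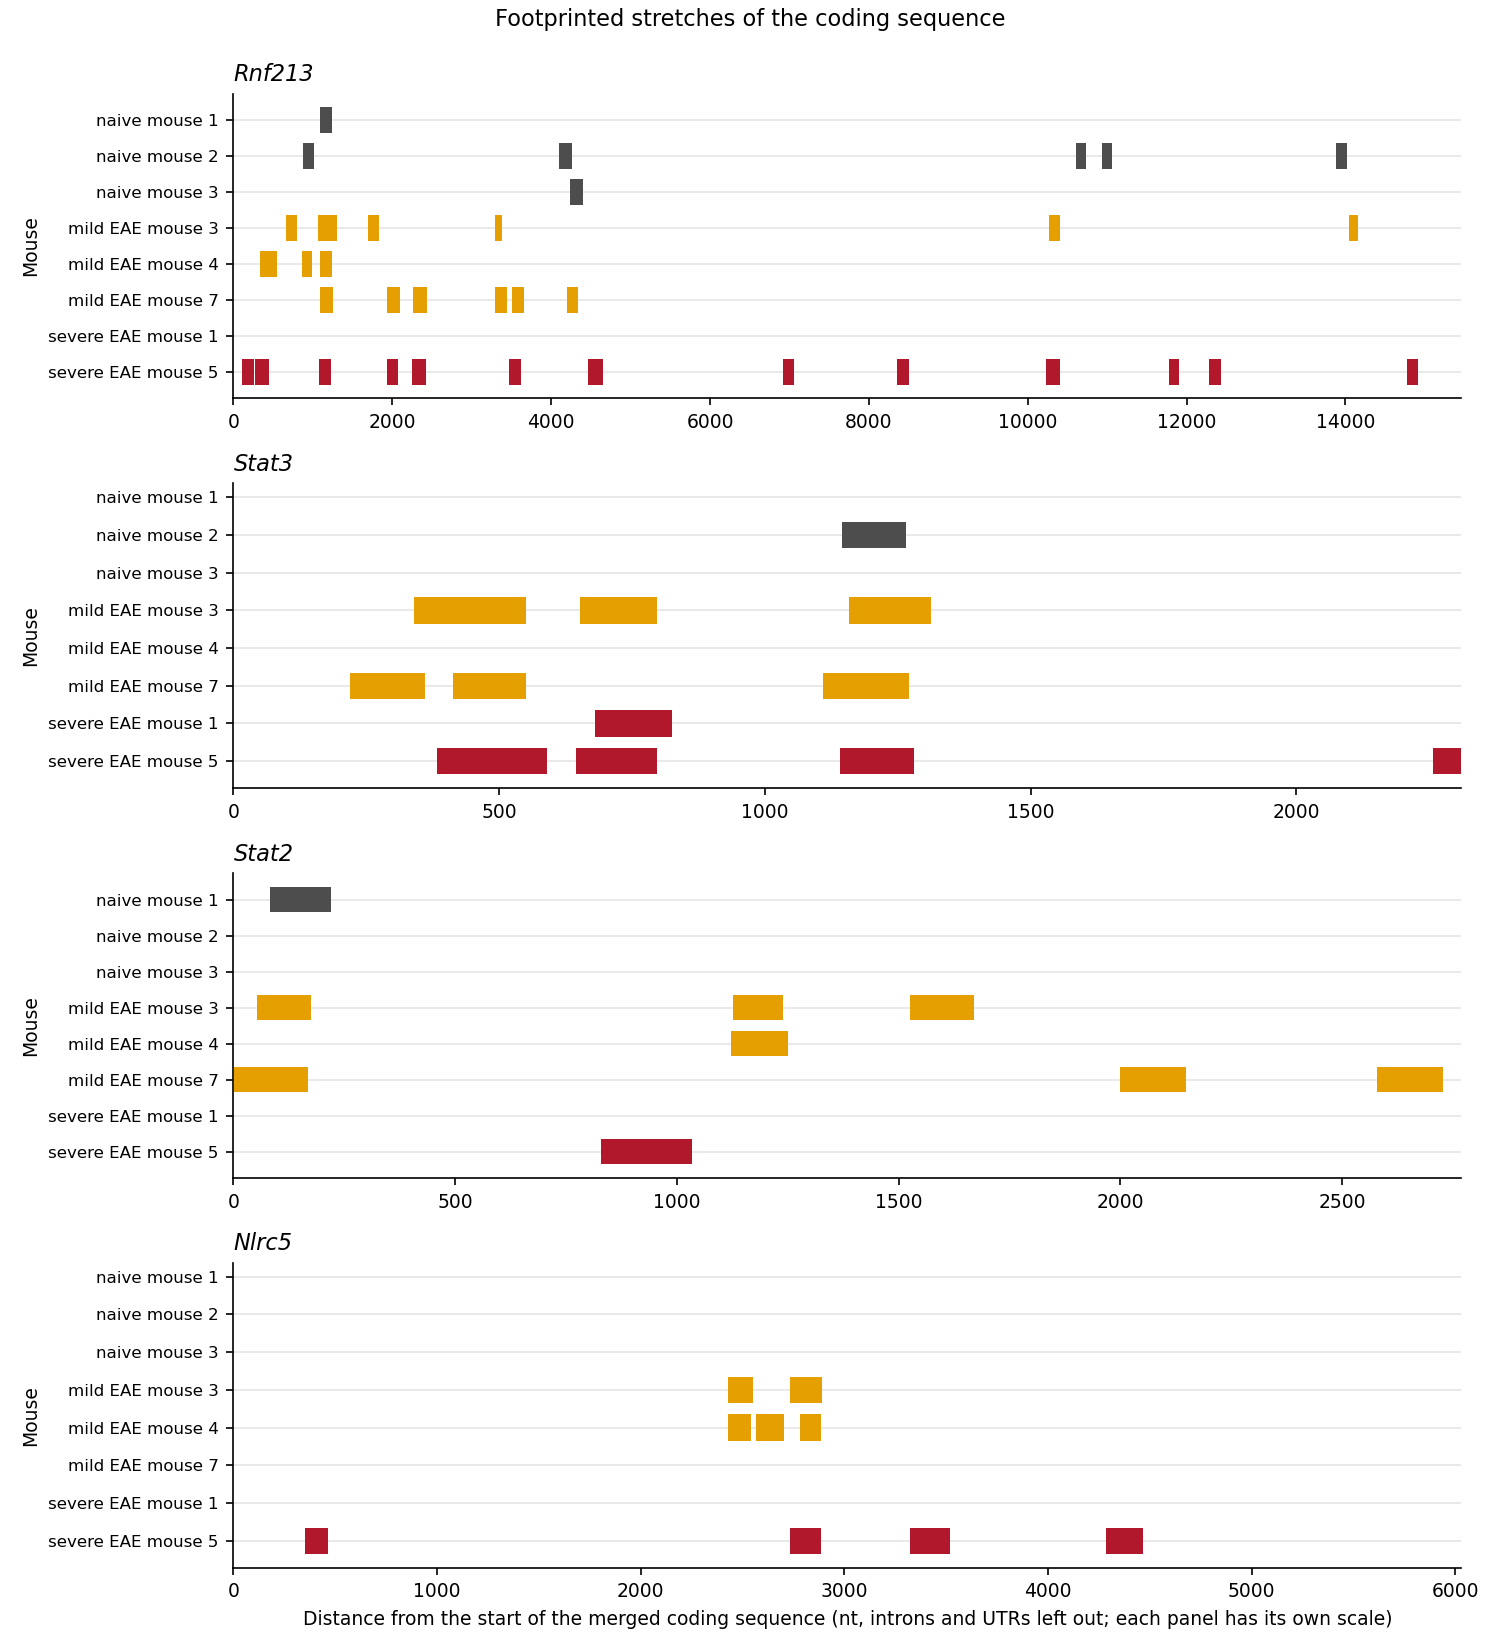
Stretches of the coding sequence of Rnf213, Stat3, Stat2 and Nlrc5 covered by footprints in 8 mice, along the merged coding sequence from its 5′ end in nt (introns and UTRs left out). Severe EAE mice 2 and 6 had no footprint in these genes and are not drawn, and the stretches near the start of Rnf213 and in the middle of Stat3 recur in naïve and EAE mice.

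UAG and AGGU are sequences that hnRNP A1 binds, and were counted on the gene's strand in footprints that overlapped a single gene. In 181 such footprints of the 35 genes UAG occurred 5.27 times per 1000 nt, against 10.3 in equally long flanking windows placed 200 nt to either side, a log2 ratio of -0.96. Over 112326 footprints of all genes the densities were 12.0 and 12.9. UAG is a stop codon and most of these footprints are coding, so footprints with a coding midpoint were also compared, and there the density was 4.49 in the 35 genes and 5.41 in all genes. The log2 ratio of coding footprints to their windows was -1.16 in the 35 genes and -1.17 in all genes, so it was not particular to the 35. The windows were set by distance, and those of coding footprints could lie in introns. AGGU occurred 2.91 times per 1000 nt in the 35 genes against 4.36 in the windows, a log2 ratio of -0.585, and in coding footprints 2.56 against 3.17 in all genes. For AGGU the coding log2 ratios to the windows were -0.719 in the 35 genes and -0.489 in all genes. By group, UAG stood at 2.70 per 1000 nt in the 19 naïve footprints and 5.56 in the 162 EAE footprints, and AGGU at 3.25 and 2.87, where the naïve values rest on 5 and 6 occurrences. Of the 162 EAE footprints 37% held a UAG and 25.3% an AGGU, and of the EAE footprints of all genes 49% and 30.4% did. Among EAE footprints with a coding midpoint the gap was smaller, with UAG in 32.7% of those in the 35 genes and 35.5% in all genes, and AGGU in 22.4% and 23.6%.

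Other genes of the pathway give the context. Of 7 receptors and kinases 6 were footprinted, 5 of them in naïve mice, and Tyk2 was not. Jak1, the kinase shared by both interferon receptors, had 1 footprint in naïve mouse 2, 4, 1 and 7 in mild EAE mice 3, 4 and 7, and 8 in severe EAE mouse 5. Ifnar1, a chain of the type I receptor, had 4 in naïve mouse 3, 2 in mild EAE mouse 7 and 4 in severe EAE mouse 5. Of 3 further regulatory factors Irf2 and Irf5 were footprinted and Irf3 was not. Among 8 sensors and adaptors found by symbol, 3 were footprinted (Tbk1, Trim25 and Eif2ak2). Of 23 further effectors 13 were footprinted, 4 in naïve, 8 in mild EAE and 10 in severe EAE mice, the last all in mouse 5. Over all protein-coding genes 45.4% were footprinted in any mouse, 33.8% in naïve, 31.7% in mild EAE and 30.3% in severe EAE mice. Gbp6 had 1 footprint in naïve mouse 2, 3, 4 and 2 in mild EAE mice 3, 4 and 7, and 10 in severe EAE mouse 5. Mx1, Mx2, Rsad2, Oas2 and Oas3 had none. In each of these 4 lists 0 genes passed an unadjusted exact p under 0.05 or an adjusted p under 0.05 for EAE against naïve mice.

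The summed share of leukocyte and microglia markers was, like that of the interferon response genes, higher in each mild EAE mouse than in any naïve mouse. The same order held for astrocyte and for oligodendrocyte markers, but by a narrow margin. The lowest mild EAE and highest naïve shares were 1.39 and 1.37 per 1000 for astrocytes, and 0.941 and 0.876 for oligodendrocytes. Among astrocyte markers Slc1a2 had the most footprints, 12, 5 and 13 in naïve and 16, 11 and 17 in mild EAE mice. Gfap went the other way, with 0, 2 and 7 in naïve and 0 in all mild EAE mice. The leukocyte and microglia share was 0.117 to 0.287 per 1000 in the naïve group, 0.923 to 1.86 with mild disease and 0 to 4.46 with severe disease, where 4.46 is 3 footprints in mouse 6, which had none in the 35 genes. Of 12 leukocyte and microglia markers 1, Cx3cr1, was footprinted in naïve mice, 9 were with mild and 8 with severe EAE, and 7 of 12 in at least 2 EAE mice and no naïve mouse. Csf1r had 8 footprints in mild EAE mouse 3, 1 in mouse 4 and 14 in mouse 7 of that group, with 13 in severe EAE mouse 5 and 1 each in severe EAE mice 1 and 6. Cx3cr1, the fractalkine receptor of microglia, went the other way, with 2, 5 and 3 footprints in naïve mice 1, 2 and 3, 1 each in mild EAE mice 4 and 7, and 3 in severe EAE mouse 5. Its mean share was 0.192 per 1000 in naïve and 0.0339 in EAE mice (exact permutation p = 0.00833, adjusted p = 0.389). Aif1, Cd3e and Cd4 were at 0 in all mice. Neuron markers ranged from 1.72 to 1.93 per 1000 in the naïve group, 0.573 to 1.17 in mild EAE and 0 to 1.44 in severe EAE, astrocyte markers from 0.516 to 1.37, 1.39 to 1.79 and 0 to 4.12, and oligodendrocyte markers from 0.401 to 0.876, 0.941 to 1.54 and 0 to 1.50. The role of cell composition in the values of the interferon response genes was not tested.

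**Figure D5:**
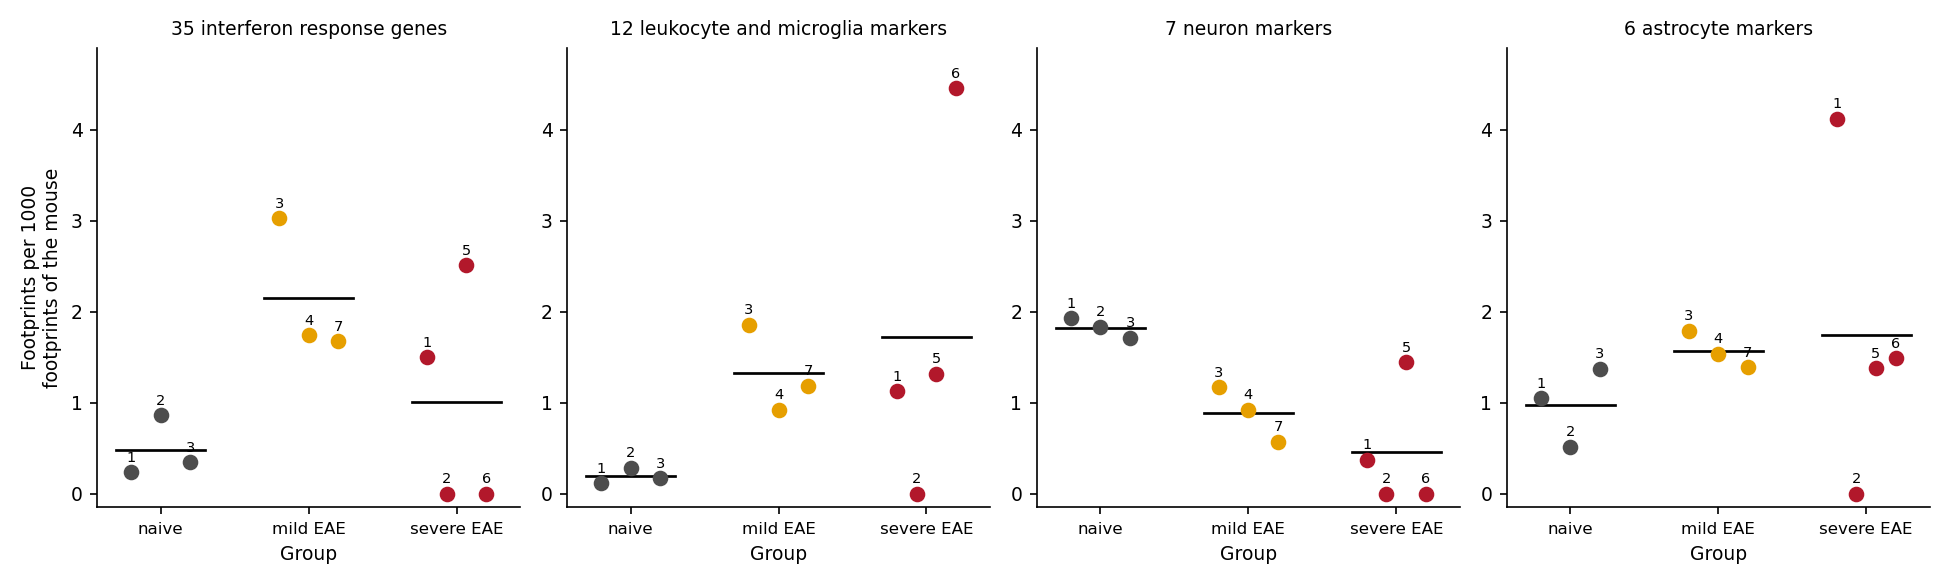
Footprints per 1000 footprints of the mouse summed over the 35 interferon response genes and over markers of leukocytes and microglia, neurons and astrocytes, by group, with 1 numbered point per mouse and a line at the group mean. The interferon response genes and the leukocyte and microglia markers are low in the 3 naïve mice and higher in the 3 mild EAE mice, and neuron markers are highest in naïve mice. Astrocyte markers, and oligodendrocyte markers (not drawn), are also higher in each mild EAE mouse than in any naïve mouse, but by a narrow margin.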

How the data were processed

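Spinal cords of 3 naïve, 3 mild EAE and 4 severe EAE mice gave 1 hnRNP A1 immunoprecipitation each, and the mouse was the replicate. The inputs and pooled IgG libraries were not analysed here. The authors trimmed the reads, assembled each library with rnaSPAdes, aligned contigs to GRCm38 with minimap2 (version 2.17 in the submitters' processing notes, which also list bcl2fastq 2.19.0.316, fastp and bedtools), removed sites found in the matched input or pooled IgG, and merged overlapping sites. The deposited lists give chromosome, start and end, with no count, score or strand, so the depth per footprint is unknown, a site in the input is never listed, and genes on opposite strands cannot be separated. The labels and the methods name different clones of the hnRNP A1 antibody.

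Genes came from GENCODE M21 (GRCm38). Of 136207 footprints 135636 lay on named nuclear chromosomes, 0 past an end. All 35 symbols matched. A gene's share is its footprints per 1000 footprints of the mouse. Genes footprinted in at least 2 of 10 mice were tested by two-sided exact permutation over mice, with Benjamini-Hochberg adjustment over all 9195. One shared stretch is not reported here. The code was tested on simulated data. Members and lists were chosen with earlier results of these data known. All 35 genes are accounted for, with values per mouse for those in at least 3 mice. Sorting of the genes by role, the counts without short lists, the exon edges and the coding motif comparison were added after the data were seen. Alternatives were covered nucleotides, presence, a log2 scale, mapped reads as the denominator, footprints of at least 30 nt, merging within 50 nt, an overlap of 20 nt, exon midpoints, single-gene footprints, spans with 1000 nt added, each mouse left out in turn, and a block for replicate number. Python 3.11.15 was used with numpy 2.4.6, scipy 1.17.1, pysam 0.24.0, samtools 1.23.1 and matplotlib 3.10.9.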

Additional observations from a re-analysis of the deposited data

Results flagged for a closer look

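Severe EAE mouse 5 was far from the other 3 severe EAE mice in the number of interferon response genes with a footprint, 21 against 2, 0 and 0. Its footprints per 1000 also stood apart from the other severe EAE mice, which were all at 0, in Stat2 (0.0941), Gbp2 (0.0941), Gbp5 (0.0941), Irgm1 (0.0941), Gbp7 (0.0628), Iigp1 (0.0628), Rnf213 (0.690), Nlrc5 (0.314), Trim30a (0.0314) and Adar (0.188). Its list held 31870 footprints, against 2670, 209 and 673 in the other 3, and the part of list length in this gap was not tested. The paper describes this animal as the outlier of its severe group, with binding similar to that of naïve and mild EAE mice. It also reports that the animal had been in remission shortly before the end, and that a peak reproducibility check flagged it. Mild EAE mouse 4 stood apart among the 7 EAE mice in Trim30a, at 0.103 per 1000 from 1 footprint. By chance this criterion marks about 1 in 20 groups of normally distributed values, which shares with several values at 0 are not.

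Stat2 passed an unadjusted threshold between severities, with a severe minus mild share of -0.301 per 1000 (exact permutation p = 0.0286), higher in 3 of 3 mild EAE mice than in all 4 severe EAE mice, but not the correction over all genes (adjusted p = 0.635). The severe EAE side rests on the 0 of mice 1, 2 and 6, whose limits of 3 counts lie above the mild EAE shares, so no difference is established.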

How the results depend on the processing

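The counts of genes past an adjusted p of 0.05 were 0 in all 4 comparisons under every alternative run, with a lowest adjusted p of 0.137 for EAE against naïve mice, 0.31 for severe EAE against naïve mice, 0.789 for mild EAE against naïve mice and 0.437 for severe against mild EAE. Some of these counts were fixed in advance, since no p under 0.05 was possible for mild EAE against naïve mice or with the replicate block. The same holds for the severe EAE comparisons with a mouse left out. The EAE minus naïve difference of the summed share, in footprints per 1000, kept its direction throughout. It was 0.850 per 1000 covered nucleotides and 0.650 per 1000000 mapped reads, which are other units, and, from 1.015, went to 0.760 to 1.26 with each mouse left out and 1.76 without the 3 short severe EAE lists. The number of footprinted genes, higher by 4.48 in EAE, differed by 2.33 to 5.83 with each mouse left out, lowest without severe EAE mouse 5, and by 10.1 without the 3 short lists. The log2 ratio to flanking windows ranged from -1.23 to -0.892 for UAG and from -0.719 to -0.521 for AGGU. Among 12 single genes the EAE minus naïve difference turned sign in 4, none of which had passed a test, and the cause was not tested. Gbp7 became higher in EAE by covered nucleotides (0.00987) and without the 3 short severe EAE lists (0.0120), and with each mouse left out ran from -0.0285 to 0.0286, positive without naïve mouse 3. Trim30a became lower by covered nucleotides (-0.00360), per 1000000 mapped reads (-0.00767), by exon midpoints (-0.0132) and in single-gene footprints (-0.0132), the last 2 of which drop the footprints in Gm25405, and ran from -0.00700 to 0.0250 with each mouse left out. Rnf213 became lower by presence (-0.429 as a difference of the shares of mice) and per 1000000 mapped reads (-0.692), and ran from -0.0179, without naïve mouse 3, to 0.211. Adar became lower per 1000000 mapped reads (-0.121) and in single-gene footprints (-0.00409), and ran from -0.00162, without severe EAE mouse 5, to 0.0583. With the replicate block, 0 genes passed in EAE against naïve and 0 in severe EAE against naïve mice, but its few pairs allow no p under 0.05. Gbp7 (0.00776), Rnf213 (-0.0235) and Trim30a (-0.0191) turned sign with this block. The shared numbers did not pair the animals, with correlations of deviations of -0.109, 0.0715 and 0.0852. No paired analysis was possible for mild EAE against naïve or severe against mild EAE, which share fewer than 2 numbers. List length limits what severe EAE mice 1, 2 and 6 can show, and a gene without a footprint there is not shown to be unbound.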
